A study of Mus musculus with 5 samples.

Results

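The ceramide and sphingolipid metabolism genes described here are 36 genes, chosen by name for their place in the pathway, of the 22380 protein-coding genes of the GENCODE vM1 mouse annotation. They cover the synthesis of ceramide, the enzymes that take it apart, and the making and breakdown of sphingomyelin and glycolipids. A peak of acetylated histone H3 lysine 9 (H3K9ac) counted for a gene if the called centre was no more than 10 kb away from a transcript start of the gene. By this rule 80 of the 34286 peaks in the list for DOP-treated cells, and 86 of the 33355 peaks in the list for untreated cells, lay near the 36 genes.

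The cells were STHdh Q111 cells, a conditionally immortalized line of mouse striatal progenitors on the C57BL/6 background with the genotype STHdhQ111/Q111, and both groups carried this mutant huntingtin. Treated cells (Q111_DOP, 2 samples) received 4 mM 4-deoxypyridoxine (DOP) in serum-free medium for 24 h, and untreated cells (Q111_SST, 2 samples) received serum-free medium with vehicle for the same time. DOP inhibits sphingosine-1-phosphate lyase (SPL), the last enzyme of sphingolipid breakdown, and the comparison asks how H3K9ac differs when that exit is blocked. The authors deposited 1 peak list per condition on the mm9 genome, so no value has an error between replicates, a difference between the lists has no replicate check, and no test between conditions could be run.

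Ceramide is built at the endoplasmic reticulum from serine and a fatty acyl chain and is the hub of the pathway. It is converted to sphingomyelin, to ceramide phosphate or to glycolipids such as the gangliosides of neurons, and is returned from these lipids by hydrolases, many of them lysosomal. Ceramidases release sphingosine from it, whose phosphate SPL cleaves, and inherited loss of the lysosomal members causes storage diseases of the nervous system. H3K9ac is a mark of active promoters, with its peaks close to transcription start sites.

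Each deposited peak is an interval of 200 bp around a called position, with a score whose definition is not given and whose median was 419 in the DOP-treated and 400 in the untreated list. Scores are therefore set side by side mainly as percentiles within their own list, where 100 is the highest. Positions are given in bp from the nearest start site of the gene, negative upstream. Checked against cell type markers by the same window, 3 of 7 neural progenitor markers had a DOP-treated peak and 2 of 7 an untreated one, with Vim and Dlx1 among them and Nes, Sox2, Pax6 and Gsx2 without a peak. Of the markers of other cells, 1 of 6 for mature striatal neurons (Ppp1r1b), 1 of 3 for astrocytes, 1 of 3 for microglia and blood and 4 of 5 for mesenchymal cells had peaks in each list, 2 of 4 for oligodendrocytes had a DOP-treated and 1 an untreated peak, and none of 2 for endothelium had any. Over all protein-coding genes 57.7% had a DOP-treated and 56.9% an untreated peak. The marker peaks differed widely in rank. The highest were at percentiles of 10.1 (DOP-treated) and 6.53 (untreated) for the astrocyte gene Slc1a2. For the mesenchymal genes Col1a2 and Twist1 they were at 23.5 and 25.5 and at 95.5 and 87.7. The part of these cell types in the results was not tested.

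Most of the sphingolipid genes had H3K9ac peaks within 10 kb of a start site in both conditions. A DOP-treated peak lay near 29 of the 36 genes (80.6%, against 57.7% of all protein-coding genes) and an untreated peak near 30 (83.3%, against 56.9%). Within 1 kb of a start site these numbers were 28 and 29. They were 27 and 29 where a peak counted only for its nearest gene. The shares of all genes were not recomputed for these 2 settings. No peak of either list lay near Sptlc3, Degs2, Asah2, Smpd3, Sgms2 and St8sia1, and Ugt8a had a peak in the untreated list alone, which held for 1.62% of all protein-coding genes. The remaining 29 genes had peaks in both lists.

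The peaks lay mostly just downstream of the start site, in the first part of the transcribed region. Of the 80 DOP-treated peaks 58 lay downstream of the nearest start site and 22 upstream, and 69 were within 1 kb of it. In the untreated list the numbers were 61, 25 and 74 of 86. The highest-scoring DOP-treated peak of each gene lay at a median of 229 bp, and 19 of 29 such peaks fell from 100 to 400 bp downstream, where 50.8% of the highest peaks of all genes fell. In the untreated list the median was 214 bp and 19 of 30 fell in that stretch, against 51.0%. Between the lists the highest peak of a gene moved by a median of 37 bp and by at most 100 bp in 26 of 29 genes.

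**Figure D1:**
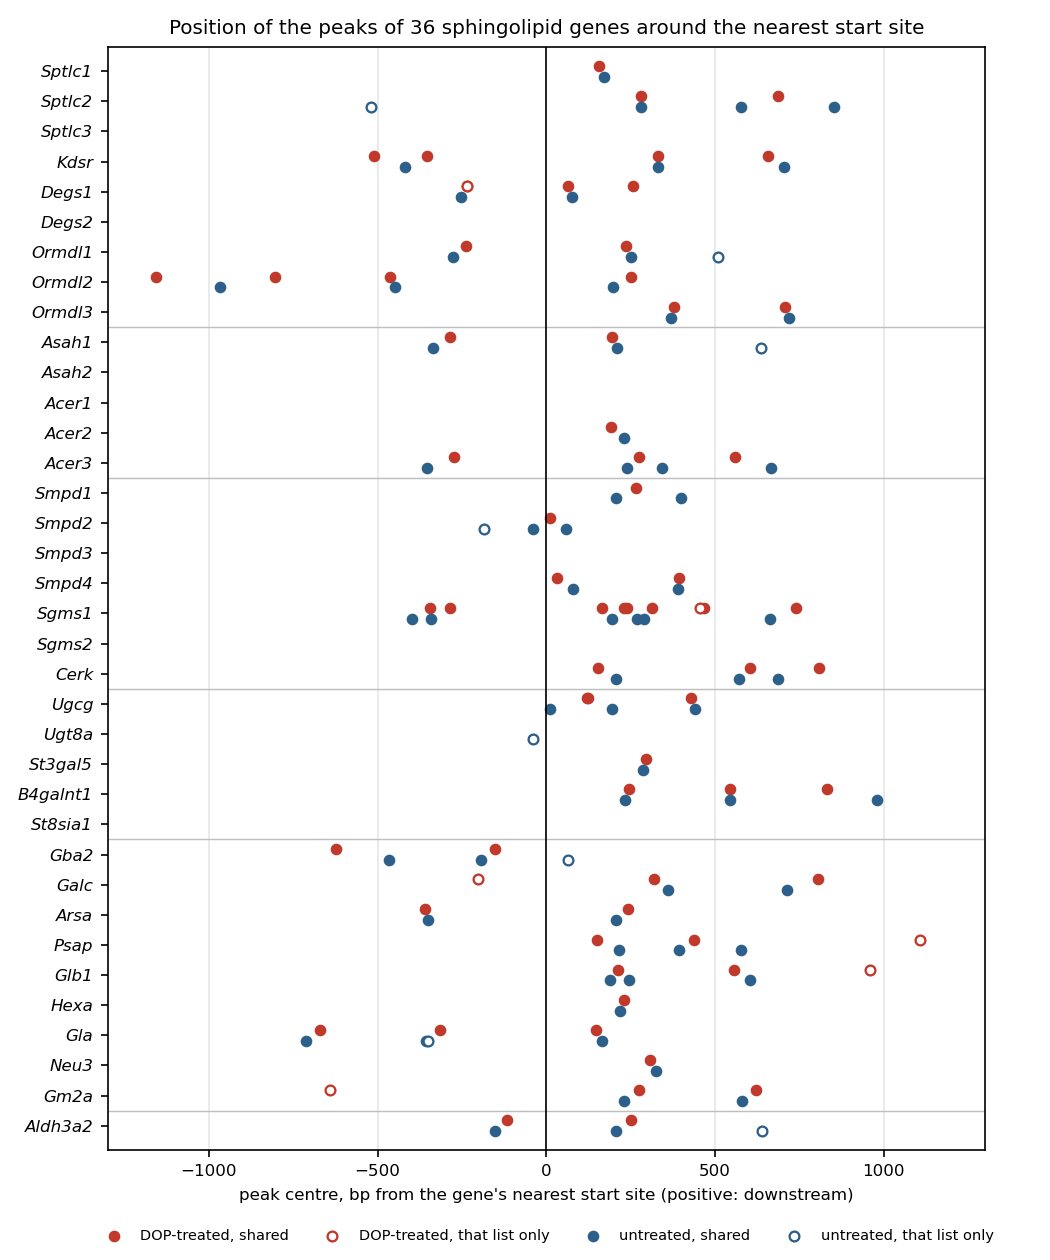
Each point is the centre of a peak on the horizontal axis, in bp from the nearest start site of its gene (negative upstream), with 1 row per gene and the enzyme classes separated by lines. Red marks DOP-treated and blue untreated peaks, filled where the peak overlaps one of the other list and open where it was found in that list only. The 145 peaks within 1200 bp are drawn and 21 peaks of 8 genes lie farther out, and the points are densest at 100 to 400 bp downstream in both colours.

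In the score ranks the medians of the 2 lists were close for these genes. A percentile within its own list cannot show a change in acetylation that all peaks share. By western blot, the paper reports a rise in overall H3K9ac in these cells after DOP. The median score percentile of the peaks was 60.1 in each list, beside 55.2 and 55.1 for the peaks near any protein-coding gene. The highest peak of a gene had a median percentile of 82.7 when DOP-treated (44.1 to 98.7) and 81.3 when untreated (3.85 to 97.3), beside 78.4 and 77.3 over all genes with a peak. Above the 90th percentile were the highest peaks of 8 of 29 genes with DOP and of 5 of 30 without it, beside 27.3% and 26.6% of all genes with a peak.

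Peaks whose intervals overlapped by at least 1 bp were called shared. Only 8 of the 80 DOP-treated peaks near these genes lacked an untreated partner (10.0%, 5.15% to 18.5% as the 95% Wilson interval, for the counting of peaks alone), against 20.0% of all DOP-treated peaks and 16.2% of those near any protein-coding gene. Of the 86 untreated peaks 13 lacked a DOP-treated partner (15.1%, 9.05% to 24.2%), against 16.7% and 13.3%. Both intervals treat the peaks as independent, which neighbouring peaks of the same gene are not. They may be too narrow and are no test of these genes against all peaks. The list-only peaks were mostly weak. The DOP-treated ones had a median percentile of 14.7, with none above 34.0, and the untreated ones 17.6, where 11 of 13 were in the lower 50% of the list. The percentiles of list-only peaks over the whole lists were not computed, so these values have no background. Among 65 pairs of peaks that were each other's nearest partner, the centres lay a median of 38 bp apart and the percentile differed by a median of 1.41 (DOP-treated minus untreated, -25.1 to 45.1), beside 29 bp and 1.34 for 25377 pairs over the genome.

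**Figure D2:**
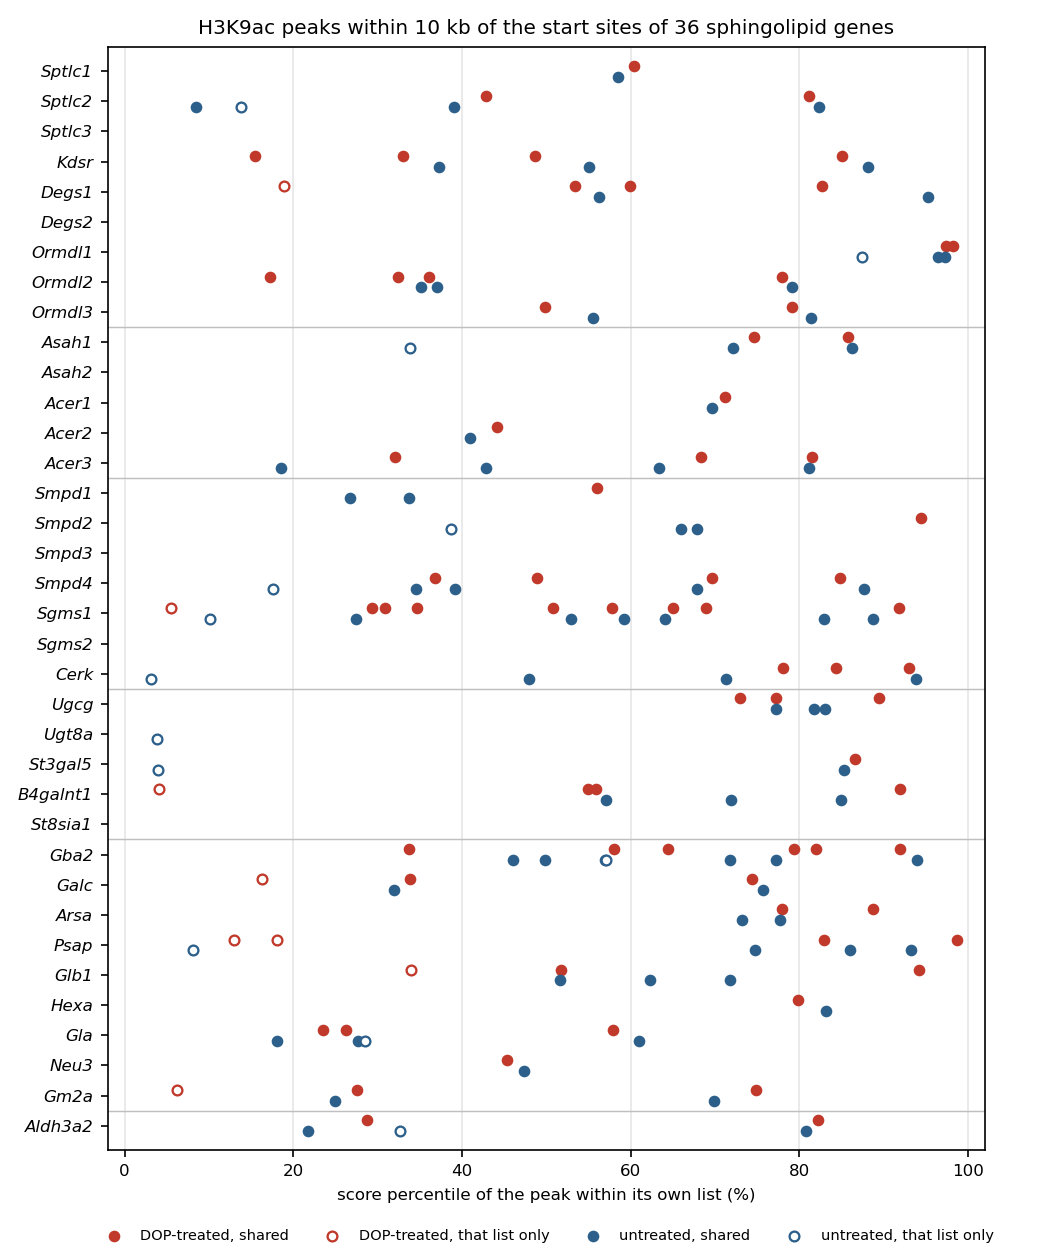
The horizontal axis gives the score percentile of each peak within its own list, with 1 row per gene, DOP-treated peaks in red above untreated peaks in blue. Filled points are shared peaks and open points were found in that list only, and all open points but those of Ormdl1 (87.5) and Gba2 (57.1) lie below 50.

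Ceramide synthesis starts with serine palmitoyltransferase, and 7 of the 9 genes of synthesis and its regulators had peaks in both lists. Sptlc1, which encodes the shared subunit of the enzyme, had 1 peak per list, at 157 bp in the DOP-treated list (score 524, percentile 60.4) and at 171 bp in the untreated list (score 483, percentile 58.5). Sptlc2, a catalytic subunit, had its highest peak at the same base in both lists, 282 bp downstream, with percentiles of 81.1 and 82.4. It had 2 peaks in the DOP-treated and 4 in the untreated list, and the untreated peak at -519 bp (score 119, percentile 13.8) had no partner. Sptlc3, an alternative catalytic subunit, had none.

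The bases before the start sites of Sptlc1 and Sptlc3 are shown because these subunits of the same enzyme differed in the mark, with peaks at Sptlc1 and none at Sptlc3. Each is read from the mm9 genome in the direction of the gene, with CG dinucleotides in capitals, from chr13:53472735-53472934 on the minus strand for Sptlc1 and from chr2:139319449-139319648 on the plus strand for Sptlc3. The first holds 20 CG dinucleotides in 200 bases and the second 1.
Sptlc1: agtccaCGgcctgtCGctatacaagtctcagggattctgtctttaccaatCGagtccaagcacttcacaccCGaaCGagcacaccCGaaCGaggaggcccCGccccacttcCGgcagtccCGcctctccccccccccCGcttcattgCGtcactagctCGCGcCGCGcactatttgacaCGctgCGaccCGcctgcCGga
Sptlc3: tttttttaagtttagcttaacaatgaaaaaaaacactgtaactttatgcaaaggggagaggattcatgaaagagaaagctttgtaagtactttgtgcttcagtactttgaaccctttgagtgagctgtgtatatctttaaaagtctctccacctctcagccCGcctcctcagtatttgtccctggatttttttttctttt

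The next steps of synthesis are the reduction of the ketone by Kdsr and the desaturation of dihydroceramide by Degs1 and Degs2. Kdsr had its highest peak at the same base in both lists, 332 bp downstream (percentiles 85.1 and 88.1), and had 4 DOP-treated and 3 untreated peaks. Degs1 differed more in how its signal was divided. The untreated list placed 1 peak in an intron, with a score of 1389 (percentile 95.3). It lay at -252 bp from an inner start site, which is 580 bp downstream of the outer one. The DOP-treated list placed 2 overlapping intervals there. The first lay at -235 bp from that inner start with a score of 882 (percentile 82.7). The second lay at 257 bp from the outer start site with a score of 519 (percentile 59.9). Degs1 also had a DOP-treated peak at -234 bp from that outer start site which the untreated list lacked (score 167, percentile 18.9), and its numbers were 4 and 2. Summed over its peaks, the score was 2017 in the DOP-treated and 1850 in the untreated list, a log2 ratio of 0.12 that lay 0.02 from the median of all genes. Degs2 had no peak.

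The ORMDL proteins are membrane proteins that hold serine palmitoyltransferase in check, and all 3 genes had peaks in both lists. Ormdl1 had the highest peaks of this class. In the DOP-treated list they lay at -238 bp (score 1739, percentile 98.2) and at 236 bp (score 1601, percentile 97.4), and in the untreated list at -276 bp (score 1624, percentile 97.3) and at 250 bp (score 1510, percentile 96.4). The untreated list alone placed a further peak at 508 bp, in the intron, with a score of 990 at the 87.5th percentile, the highest list-only peak near any of the 36 genes. Its nearest DOP-treated peak was 272 bp away, in the same run of peaks. The upstream peak lies nearer to Pms1, a mismatch repair gene that starts 77 bp away on the other strand, so it cannot be assigned to Ormdl1 alone.

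The 2 intronic intervals of Ormdl1 are shown as the one found in both lists and the one found in the untreated list only. Both are on the plus strand of mm9 with CG dinucleotides in capitals, the shared one at chr1:53354076-53354275 as called in the DOP-treated list and the untreated one at chr1:53354348-53354547. The shared interval holds 19 CG dinucleotides and 68.0% G and C, and the other 5 and 39.0%.
Ormdl1 shared: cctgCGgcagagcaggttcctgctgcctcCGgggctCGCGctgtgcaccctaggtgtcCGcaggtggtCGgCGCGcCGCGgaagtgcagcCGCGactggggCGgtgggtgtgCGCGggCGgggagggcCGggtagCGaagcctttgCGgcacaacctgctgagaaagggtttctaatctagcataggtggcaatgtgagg
Ormdl1 untreated only: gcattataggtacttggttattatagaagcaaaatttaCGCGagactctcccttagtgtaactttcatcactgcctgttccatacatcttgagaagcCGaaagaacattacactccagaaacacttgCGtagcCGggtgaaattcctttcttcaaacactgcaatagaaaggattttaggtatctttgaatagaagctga

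Ormdl2 and Ormdl3 had lower peaks that matched between the lists. Ormdl2 had 4 DOP-treated and 3 untreated peaks, the highest at -462 and -448 bp (percentiles 78.0 and 79.2), and 3 DOP-treated and 2 untreated ones lay nearer to Sarnp, whose start on the other strand is 140 bp away. Ormdl3 had 2 peaks in each list, the highest at 380 bp in the DOP-treated list (percentile 79.2) and at 370 bp in the untreated list (percentile 81.4).

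Ceramidases split ceramide into sphingosine and a fatty acid, in the lysosome (Asah1), at the plasma membrane (Asah2) and in the endoplasmic reticulum and Golgi (Acer1, Acer2 and Acer3). None of the 5 genes had more DOP-treated than untreated peaks, 2 had fewer and 2 had the same number. Among all genes with a peak, 32.5% had more and 28.5% had fewer. With peaks within 1 kb chained into clusters, each ceramidase gene had equal numbers in both lists. Asah1 had the highest peak of the class, at 195 bp with a score of 962 in the DOP-treated list (percentile 85.8) and at 211 bp with 953 in the untreated list (percentile 86.3). Its numbers were 2 and 3, and the additional untreated peak lay at 638 bp (score 266, percentile 33.9). The peaks of Acer3 lay around a start site 11702 bp inside the gene and none lay near its outermost start. They numbered 3 in the DOP-treated and 4 in the untreated list, and the highest had percentiles of 81.5 and 81.2. Acer2 had 1 peak per list (percentiles 44.1 and 40.9). The single peak counted for Acer1, at -8405 bp in the DOP-treated list, lay nearest to Clpp, a mitochondrial protease gene, and Asah2 had none.

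Sphingomyelin is made from ceramide by the synthases Sgms1 and Sgms2 and cleaved back to it by the sphingomyelinases Smpd1 to Smpd4, and ceramide kinase (Cerk) makes ceramide phosphate. In this class 5 of 7 genes had peaks in both lists, and 4 of them had fewer DOP-treated peaks and 1 more. Among all genes with a peak, 28.5% had fewer and 32.5% had more. With peaks within 1 kb chained into clusters, only Cerk differed, with 1 DOP-treated and 2 untreated clusters. Smpd2, a neutral sphingomyelinase gene, had the highest DOP-treated score of the class but not the highest untreated one, which was that of Cerk. The DOP-treated list held 1 peak at 12 bp with a score of 1324 (percentile 94.4). The untreated list held 2 peaks around the same place, at 59 bp with a score of 569 (percentile 66.0) and at -40 bp with a score of 593 (percentile 67.9). These positions are from inner start sites, and the peak at -40 bp lay inside the gene. Another untreated peak at -186 bp with 305 (percentile 38.7) was overlapped by no DOP-treated peak. The sums were 1324 and 1467, a log2 ratio of -0.15, and the gene shares its promoter with Ppil6, which starts 70 bp away on the other strand.

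Sgms1 had 9 peaks in the DOP-treated list, the most of the 36 genes, and 7 in the untreated list, as many as Gba2. They fell mainly around 2 groups of start sites, the outer one with the highest peak at 229 bp in the DOP-treated list (score 1176, percentile 91.8) and at 196 bp in the untreated list (score 1033, percentile 88.8). At the outer start an untreated peak at 268 bp (score 860, percentile 82.9) faced DOP-treated peaks at 467, 239 and 165 bp with percentiles of 30.9, 57.8 and 50.8. At the inner group the DOP-treated peak at 314 bp had a percentile of 68.9 and the untreated one at 291 bp 59.2. Each list had 1 weak peak of its own, at 457 bp in the DOP-treated list (percentile 5.45) and at -6551 bp in the untreated list (percentile 10.1). Both lay in introns and are measured from inner start sites. Summed scores were 4155 and 3664.

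Cerk had the largest percentile difference among the 65 pairs. A DOP-treated peak at 605 bp (score 1237, percentile 93.0) was paired with an untreated one at 571 bp (score 381, percentile 48.0), and the difference was 45.1. The strongest untreated peak, however, lay 81 bp from the same DOP-treated peak, at 686 bp with a score of 1281 (percentile 93.9), so the highest peaks of the gene matched. Cerk had 3 DOP-treated peaks, and 4 untreated ones of which the peak at -8898 bp (score 41.0, percentile 3.15) was the lowest near any of these genes.

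Smpd1, the acid sphingomyelinase, again had 1 DOP-treated peak between 2 untreated ones. The former lay at 265 bp with a score of 476 (percentile 56.0), and the latter at 206 bp and 399 bp with scores of 264 and 211 (percentiles 33.7 and 26.7), a sum of 475. Smpd4 had 4 and 5 peaks. Its promoter peak lay at 33 bp in the DOP-treated list (percentile 84.8) and at 80 bp in the untreated list (percentile 87.7), and the more distant peaks, among them the untreated-only one at 7595 bp (percentile 17.6), were nearest to Ccdc74a. Smpd3 and Sgms2 had no peak.

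Glycolipid synthesis begins with the addition of glucose by Ugcg or of galactose by Ugt8a, the enzyme of myelin lipids, and St3gal5, B4galnt1 and St8sia1 build the gangliosides. Ugcg had 3 peaks in each list, the highest at 123 bp in the DOP-treated list (score 1079, percentile 89.5) and at 12 bp in the untreated list (score 862, percentile 83.0). Ugt8a had no DOP-treated peak, the nearest being 425557 bp away, and 1 untreated peak at -39 bp. That peak had a score of 46.0 and a percentile of 3.85, at the foot of the list. St3gal5, the GM3 synthase, had its main peak at 295 bp (score 984, percentile 86.6) and 287 bp (score 922, percentile 85.3), and a weak untreated-only peak at -6202 bp (percentile 4.01).

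B4galnt1, the enzyme of the next ganglioside step, had the highest DOP-treated peak of this class, whereas St3gal5 had the highest untreated one. The B4galnt1 peak lay at 246 bp in the DOP-treated list with a score of 1183 (percentile 92.0) and at 232 bp in the untreated list with 909 (percentile 84.9). The second peak lay at the same base in both lists, 545 bp downstream, and ranked the other way, at percentiles of 55.9 and 71.9. A DOP-treated peak at 5872 bp, in a coding exon (score 53.0, percentile 4.06), had no untreated partner, and the numbers were 4 and 3. St8sia1, the GD3 synthase, had no peak.

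The sequence before the start of Ugt8a is set beside that of Ugcg because both are rich in CG dinucleotides although only Ugcg had strong peaks. The stretches are chr4:59201929-59202128 on the plus strand for Ugcg, with 32 CG dinucleotides in 200 bases, and chr3:125641469-125641668 on the minus strand for Ugt8a, with 29, in mm9 and with CG in capitals.
Ugcg: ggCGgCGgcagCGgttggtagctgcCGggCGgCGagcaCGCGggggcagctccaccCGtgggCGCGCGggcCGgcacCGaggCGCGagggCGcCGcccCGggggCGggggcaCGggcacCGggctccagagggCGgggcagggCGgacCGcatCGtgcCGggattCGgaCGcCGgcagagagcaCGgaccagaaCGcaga
Ugt8a: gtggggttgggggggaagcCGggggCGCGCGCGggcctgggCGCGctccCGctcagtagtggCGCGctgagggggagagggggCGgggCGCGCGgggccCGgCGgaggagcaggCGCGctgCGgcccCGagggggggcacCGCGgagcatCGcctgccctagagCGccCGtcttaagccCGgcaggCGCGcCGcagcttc

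All 9 genes of glycolipid breakdown had peaks in both lists, with 26 peaks in each. The numbers were higher in the DOP-treated list for 2 genes (Galc and Gm2a), lower for 2 (Gba2 and Gla) and equal for 5 (Arsa, Psap, Glb1, Hexa and Neu3). Among all genes with a peak, 32.5% had more and 28.5% had fewer. Chained into clusters within 1 kb, only Psap differed, with 3 DOP-treated and 2 untreated clusters. Psap encodes prosaposin, the precursor of the saposins that present lipids to lysosomal hydrolases, and had the highest DOP-treated peak of the 36 genes. In the DOP-treated list it lay at 438 bp with a score of 1876 (percentile 98.7), beside 1 at 151 bp with 887 (percentile 82.9). The untreated list spread the same stretch over 3 peaks, at 217 bp with 1235 (percentile 93.2), at 395 bp with 943 (percentile 86.0) and at 577 bp with 697 (percentile 74.7). The sums over all peaks of the gene, 3046 and 2953, were close. Weak peaks without a partner lay at -1829 and 1107 bp from inner starts in the DOP-treated list (percentiles 18.1 and 13.0) and at -7937 bp in the untreated list (percentile 8.10).

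The highest DOP-treated peak near these genes, in the Psap intron, and the highest untreated peak of Degs1 are shown for their contrast in composition. The Degs1 peak lies in an intron, at -252 bp from an inner start site. The first lies at chr10:59740715-59740914 on the plus strand of mm9 and holds 6 CG dinucleotides (capitals) in 200 bases. The second lies at chr1:184212508-184212707, read on the minus strand, and holds 28.
Psap: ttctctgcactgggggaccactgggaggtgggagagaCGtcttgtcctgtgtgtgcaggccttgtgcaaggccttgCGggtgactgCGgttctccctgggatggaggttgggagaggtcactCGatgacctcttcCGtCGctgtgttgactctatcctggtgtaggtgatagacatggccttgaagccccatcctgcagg
Degs1: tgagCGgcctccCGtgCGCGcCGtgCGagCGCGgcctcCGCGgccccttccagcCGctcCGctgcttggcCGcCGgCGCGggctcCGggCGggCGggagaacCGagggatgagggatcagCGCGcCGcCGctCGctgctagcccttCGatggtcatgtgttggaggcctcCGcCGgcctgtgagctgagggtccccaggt

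Glb1, the beta-galactosidase, was divided in a like manner. Its highest DOP-treated peak, at 212 bp with a score of 1307 (percentile 94.2), faced untreated peaks at 188 bp with 523 (percentile 62.3) and 244 bp with 651 (percentile 71.8). Glb1 also had a DOP-treated-only peak at 960 bp (score 280, percentile 34.0). Its scores summed to 2021 (DOP-treated) and 1588 (untreated), one of the higher log2 ratios of these genes at 0.35. Arsa, which removes the sulfate of sulfatide, had the highest at 0.37, from sums of 1835 and 1421 over 2 peaks in each list (percentiles 88.7 and 77.9 against 77.7 and 73.2).

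Galc, the hydrolase of galactosylceramide, had a DOP-treated-only peak at -201 bp (score 147, percentile 16.3) beside a main peak at 319 and 361 bp (percentiles 74.4 and 75.7). Gm2a, the activator protein for GM2 ganglioside, had one at -640 bp (score 71.0, percentile 6.25) beside a main peak at 274 and 230 bp (percentiles 74.9 and 69.9). Hexa, a hexosaminidase subunit, had a single peak per list at 229 and 218 bp (percentiles 79.8 and 83.2), and Neu3, the plasma membrane sialidase, one at 309 and 325 bp with a score of 376 in each list (percentiles 45.3 and 47.4).

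For Gla and Gba2 most peaks lay nearer to other genes. Gla, the alpha-galactosidase on the X chromosome, starts 54 bp from Hnrnph2 on the other strand, and its highest peaks, at -315 bp (percentile 57.9) and -358 bp (percentile 61.0), lay nearer to that gene. There were 3 DOP-treated and 4 untreated peaks, and the untreated one at -352 bp from an inner start (score 224, percentile 28.5) had no partner. Gba2, the non-lysosomal glucosylceramidase, had 6 and 7 peaks within the window, the former nearest to Rgp1, Tln1 or Creb3. The untreated peak at 65 bp (score 469, percentile 57.1) was the only one nearest to a start site of Gba2, and it had no DOP-treated partner. Its nearest DOP-treated peak, at -153 bp with a score of 1183 (percentile 91.9), lay 218 bp away and was paired with an untreated peak at -192 bp (score 651, percentile 71.8).

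Aldh3a2 encodes the aldehyde dehydrogenase that oxidizes hexadecenal, the aldehyde that SPL releases. Its main peak lay at 250 bp in the DOP-treated list (score 870, percentile 82.2) and at 208 bp in the untreated list (score 813, percentile 80.8). A second pair lay at -116 and -151 bp (percentiles 28.8 and 21.8), and an untreated peak at 641 bp (score 256, percentile 32.6) had no partner.

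Counted per gene, 7 of the 36 genes had more DOP-treated than untreated peaks (19.4%, against 19.3% of all protein-coding genes) and 13 had fewer (36.1%, against 16.9%), with 10 equal. Genes without a peak can have neither, and they are fewer among the 36. Over genes that had at least 1 peak, the shares were 23.3% with more (against 32.5% of 13272 genes) and 43.3% with fewer (against 28.5%). Most of these differences lay within 1 run of neighbouring peaks. With peaks of both lists chained into clusters where they lay within 1 kb, 25 of the 30 genes with a peak had equal numbers, 2 had more in the DOP-treated list (B4galnt1 and Psap; 5.56% of the 36, against 6.41% of all genes) and 3 had fewer (Cerk, St3gal5 and Ugt8a; 8.33%, against 4.20%). Over the genes with a peak these shares were 6.67% against 10.8% and 10.0% against 7.08%. The summed score of a gene's peaks was then compared over the 12375 genes with peaks in both lists, whose median log2 ratio of DOP-treated over untreated was 0.10. Relative to that median the 29 sphingolipid genes ran from -0.41 (Ormdl1, sums of 3340 and 4124) to 0.27 (Arsa), with 11 above it, 17 below it and B4galnt1 at it. Of the 29, 28 lay between the 5th and the 95th percentile of all genes (-0.41 to 0.53), and Ormdl1 was at percentile 4.98. After Ormdl1 the lowest were Gla at -0.37, Sptlc2 at -0.28 and Aldh3a2 at -0.27, and after Arsa the highest were Glb1 at 0.25, Cerk at 0.23 and Gm2a at 0.22. Because what the score counts is not known, a sum of scores is a description of the lists and not an amount of acetylation.

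**Figure D3:**
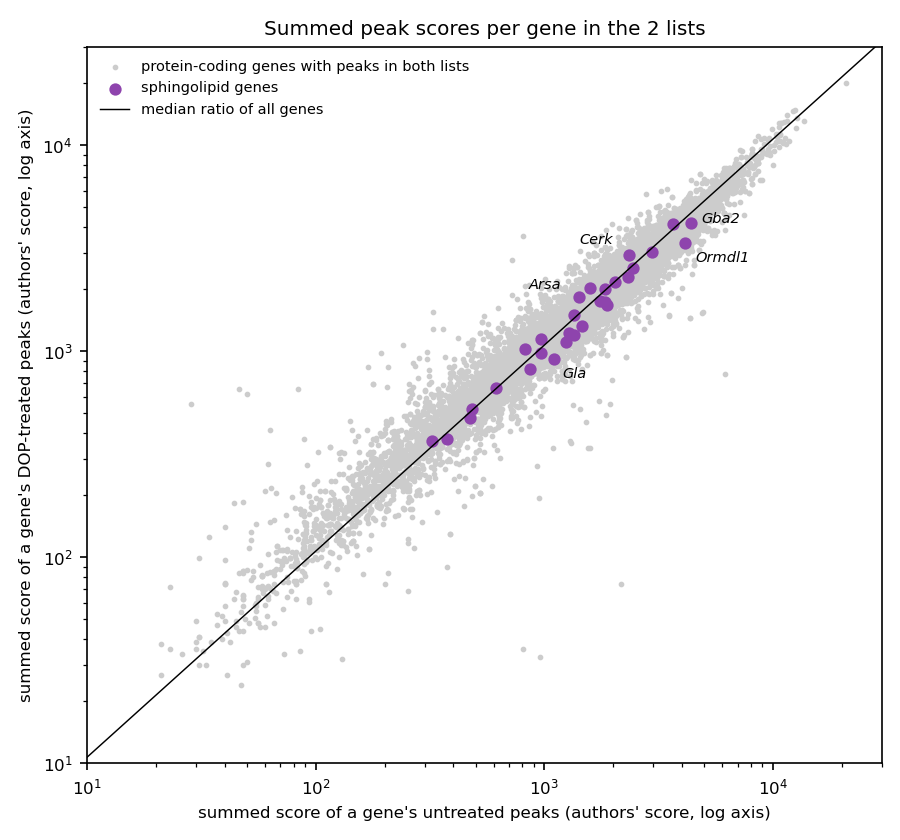
The summed score of a gene's peaks in the untreated list is on the horizontal axis and in the DOP-treated list on the vertical axis, both on log axes in the authors' score. Grey points are 12361 protein-coding genes (14 lie outside the axes), purple points the 29 sphingolipid genes with peaks in both lists, and the line the median ratio of all genes. The purple points lie along the line inside the grey cloud, with Ormdl1 and Gla below it and Arsa and Cerk above it.

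By enzyme class, the median log2 ratio relative to all genes was -0.09 for synthesis and its regulators (7 genes), -0.09 for the ceramidases (4), -0.10 for sphingomyelin and ceramide phosphate (5), -0.04 for glycolipid synthesis (3) and -0.06 for glycolipid breakdown (9). Aldehyde oxidation, which is Aldh3a2 alone, was at -0.27. The genes of a class were spread from -0.37 to 0.27 in glycolipid breakdown and from -0.41 to 0.05 in synthesis, and only from -0.08 to 0.00 in glycolipid synthesis. The median percentile of the DOP-treated peaks ran from 53.4 in synthesis to 75.2 in glycolipid synthesis, and that of the untreated peaks from 32.6 at Aldh3a2 to 77.3 in glycolipid synthesis.

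The presence of peaks went with the sequence of the promoter, as it did over all genes. In the 300 bases from 250 before to 50 after the start site with the most protein-coding transcripts, the 29 genes with peaks in both lists held a median of 21 CG dinucleotides (2 to 52) and the other 7 a median of 9 (1 to 42). Over all genes the medians were 20 with peaks in both lists (12369 genes with a full window) and 3 with a peak in neither (9106). The genes without a peak differed among themselves. Sptlc3 had 1, Asah2 2, Sgms2 5 and Smpd3 9, whereas St8sia1 had 19, Degs2 21 and Ugt8a, with its single weak peak, 42. Acer3, Smpd4 and Arsa, at 2, 3 and 5, had their highest peaks at another start site than the one this window is set on, 11702, 1970 and 1312 bp away. Among the peaks near these genes, the shared ones held a median of 12 CG dinucleotides per 200 bases in each list. They ranged from 2 to 41 in the DOP-treated (72 peaks) and from 0 to 32 in the untreated list (73 peaks). The list-only peaks held a median of 6 in the DOP-treated (8 peaks, 1 to 13) and 5 in the untreated list (13 peaks, 1 to 31). The ranges overlapped, and the same was not counted over all peaks.

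**Figure D4:**
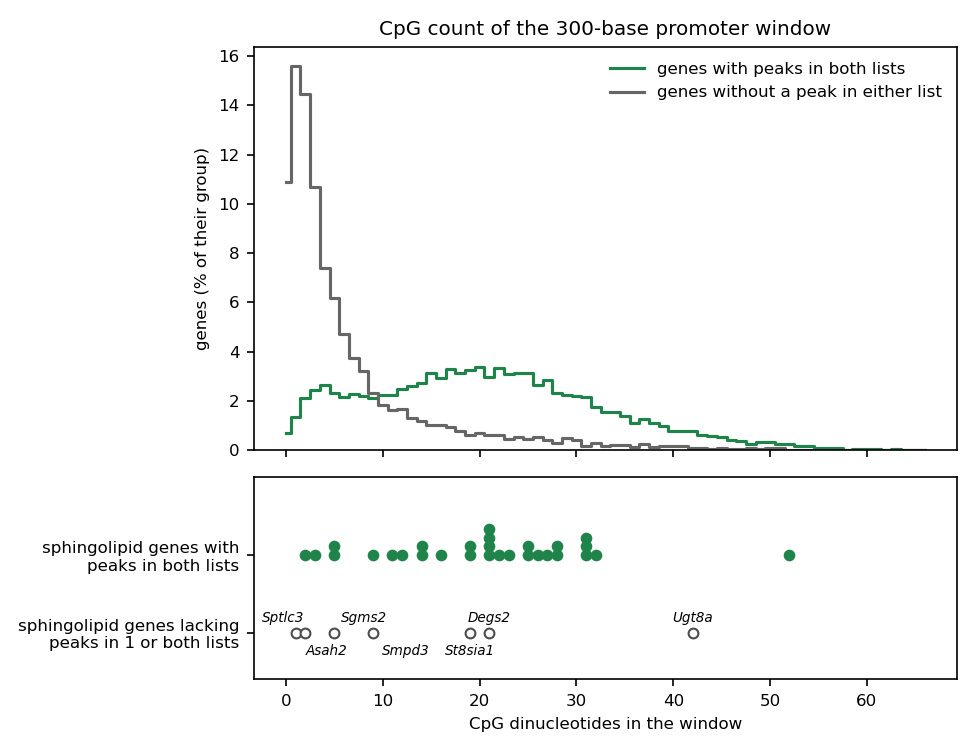
The upper panel gives the share of genes, in percent of their group, by the number of CG dinucleotides (CpG) in the 300-base promoter window, for all genes with peaks in both lists (green) and without a peak (grey). The lower panel places the 36 sphingolipid genes on the same axis, filled where peaks were found in both lists (29, median 21) and open for the 7 named genes that lack peaks in 1 or both lists (median 9).

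Short motifs were counted in the same windows on both strands. The GC box core GGGCGG occurred in 77.8% of the 36 windows and in 43.9% of those of all genes. Among genes with peaks in both lists it occurred in 86.2% of the 29 sphingolipid genes and in 62.2% of all. CCAAT occurred in 36.1% of the 36 and 37.9% of all, and TATAAA in none of the 36 and in 13.5% of all. The E-box CACGTG reads the same on both strands and occurred in 7 of the 36 windows (19.4%) and in 7.69% of all windows. Among genes with peaks in both lists it occurred in 24.1% of the 29 and in 9.76% of all. Of the 7 genes 4 belong to glycolipid breakdown (Arsa, Gla, Glb1 and Hexa), and the others are Ormdl3, Smpd2 and Aldh3a2. The other 5 genes of glycolipid breakdown (Gba2, Galc, Psap, Neu3 and Gm2a) did not have it in the window, nor did Asah1 and Smpd1, which also encode lysosomal enzymes. The Arsa site is in the window of the outer start and not at the start nearest to the Arsa peaks. Each site is shown as 30 bases of mm9 in the direction of the gene with the motif in capitals, because these are the letters the genes share, and Gla and Hexa have 2 each. The strand is minus for Aldh3a2, Arsa, Gla, Ormdl3 and Smpd2 and plus for Glb1 and Hexa, and the position is that of the motif from the start site of the window. A match is a string of letters and not a measured binding site.
Aldh3a2 at -31 bp, chr11:61080701-61080730: gggcctcatagtCACGTGcagcagctcagc
Arsa at -15 bp, chr15:89307854-89307883: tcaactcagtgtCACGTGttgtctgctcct
Gla at -107 bp, chrX:131135754-131135783: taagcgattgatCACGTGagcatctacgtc
Gla at -74 bp, chrX:131135721-131135750: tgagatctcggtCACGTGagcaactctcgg
Glb1 at -46 bp, chr9:114310136-114310165: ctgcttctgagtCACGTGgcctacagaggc
Hexa at -35 bp, chr9:59387427-59387456: ttccctcccgttCACGTGaccctccgattg
Hexa at 14 bp, chr9:59387476-59387505: ctgaccggggctCACGTGggctcagcctgc
Ormdl3 at -138 bp, chr11:98448803-98448832: ccgcttgtgcaaCACGTGaagggcgcagat
Smpd2 at -194 bp, chr10:41210323-41210352: gggcggcaaccgCACGTGacatgctggggg

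All 7 genes with the motif had H3K9ac peaks in both lists, as did 29 of the 36. Over all genes 1207 of the 1721 with the motif did. The numbers of peaks of these 7 genes were equal for Arsa, Glb1, Hexa and Ormdl3 and lower in the DOP-treated list for Gla, Smpd2 and Aldh3a2. Chained into clusters within 1 kb, they were equal for all 7. The log2 ratios of the summed scores, relative to the median of all genes, lay on both sides. They were 0.27 for Arsa, 0.25 for Glb1, -0.17 for Ormdl3, -0.18 for Hexa, -0.25 for Smpd2, -0.27 for Aldh3a2 and -0.37 for Gla.

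The other genes of the pathway were counted from a list of 29, all of which were found in the annotation. A DOP-treated peak lay near 24 of them and an untreated peak near 23, beside 57.7% and 56.9% of all protein-coding genes. No peak lay near Cers3, Cers4, Gal3st1, Sgpp2 and Sptssb. Of the 24 genes with a peak, 12 had more DOP-treated peaks, 5 fewer and 7 the same number, beside 32.5% with more and 28.5% with fewer among all genes with a peak. Found in 1 list only were 17 of their 76 DOP-treated and 3 of their 65 untreated peaks. Beside them stand 20.0% and 16.7% of all peaks, and 16.2% and 13.3% of those near any protein-coding gene. The difference between these genes and the 36 was not tested. Sgpl1, which encodes SPL itself, had 4 and 5 peaks, the highest at percentiles of 99.6 and 99.8. Smpdl3a, a relative of the acid sphingomyelinase, had 2 DOP-treated peaks (the higher at percentile 19.2) and no untreated one.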

How the data were processed

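H3K9ac ChIP-seq was analysed from 2 DOP-treated and 2 untreated samples of STHdh Q111 cells. The 1 IgG sample was not analysed here. The authors called peaks with GPS on mm9 and deposited 1 list per condition, each peak with a score, which is neither a count nor a depth as far as the sources used here say. The paper names Bowtie 2 as the aligner and the submitters' processing notes name BWA 0.7.10. How the samples of a condition and the IgG sample entered the call, the threshold and the depth per sample are not given in the sources used here.

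Peaks were assigned to genes by centre, within 10 kb of any transcript start of GENCODE vM1 on the NCBIM37 (mm9) genome. A peak near several genes counted for each. The lengths of 21 chromosomes were checked and 0 peaks ran past an end. Score percentiles were taken within each list. Peaks were shared when they overlapped by at least 1 bp. Alternatives were other windows, start sites, score limits, rules for sharing and clusters within 1 kb. The genes described peak by peak were those with list-only peaks, with numbers that differ by 2 or more, or with the highest peak of their class, and other genes were given by their main peaks. The gene lists and comparisons were chosen with earlier results of these data known. One marker of the list is not reported here. On 20000 simulated sites the code returned 4 of 4 answers that had been planted. The software was pysam 0.24.0, scipy 1.17.1, pandas 2.3.3, matplotlib 3.10.9 and numpy 2.4.6 under Python 3.11.15.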

Additional observations from a re-analysis of the deposited data

How the results depend on the processing

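No paired analysis was possible because each condition has 1 deposited list, and for the same reason no replicate could be left out. Over 68 recomputed summary values, 48 stayed and 20 moved. A count stayed if it was within 1.5 times the reported one. A median percentile stayed if it was within the 95% interval of the reported median, taken over the peaks. That interval is not an error between replicates. The counts of list-only peaks, 8 in the DOP-treated and 13 in the untreated list, both moved. They were 5 of 69 and 8 of 74 with centres within 1 kb of a start site, and 5 of 77 and 8 of 80 with a score of at least 100. In the top 50% of each list they were 2 of 50 and 5 of 53. Among the 80 and 86 peaks they were 18 and 22 with a reciprocal overlap of 50%. They were 4 and 5 with centres within 1 kb or within 2 kb counted as shared. The shares over all peaks were not recomputed under the alternatives, so these counts have no background to be set against. The untreated count fell to 8 with a window of 5 kb and to 7 with centres within 500 bp counted as shared. In the top 50% of the lists 50 DOP-treated and 53 untreated peaks were left, with 3 genes having more DOP-treated peaks and 6 fewer. Clusters gave 2 and 3 in place of 7 and 13. Of 432 values for single genes 373 stayed and 59 moved. The depth per sample is unknown, so it cannot be said which peaks the depth could have missed.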
